A study of Saccharomyces cerevisiae with 4 samples.

Results

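Nearly all genes described here code for proteins of the mitochondrial ribosome of budding yeast (Saccharomyces cerevisiae). The genes were taken as every reading frame of the deposited table whose standard name is MRPL, MRPS, MRP or RSM followed by a digit. This gave 65 of 6207 reading frames. Names came from RefSeq's genes of the S288C assembly R64, matched on the systematic name, and 67 genes there fit the rule. The other 2, MRP10 and MRPL15, were not analysed here. Of the 65 genes, 33 are MRPL (large subunit), 20 are MRPS or RSM (small subunit) and 12 are MRP and a digit. Those 12 belong to either subunit, except MRP8, which was assigned to neither.

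The mitochondrial ribosome makes the few proteins that mitochondrial DNA encodes, most of them hydrophobic subunits of the respiratory chain and the ATP synthase. Its RNAs and 1 protein, Var1, come from mitochondrial DNA, and all its other proteins are made in the cytosol and imported. Many of them descend from proteins of bacterial ribosomes, while others have no bacterial counterpart and are specific to mitochondria. A cell thus needs both genomes to build it, and yeast can live without it by fermenting.

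All RNA came from a wsc1 mutant of the BY4741 background, mutated in the gene for Wsc1, which spans the plasma membrane and senses strain on the cell wall. Cultures in rich medium (YEPD) at 24 °C were split, 1 part received Congo Red at 30 µg/ml, which binds wall polysaccharides and disturbs wall assembly, and the other part received none. Cells of both parts were collected at 4 h and their RNA was hybridised together, on 4 arrays from 2 cultures, each culture labelled in both dye orientations. Untreated cells carried the same mutation and no strain with intact WSC1 was used, so nothing here compares the mutant with the wild type.

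Each value is a log ratio of Congo Red over untreated, in log units, read as log2 because the base is not stated. On arrays 1 and 3 the Congo Red RNA carried Cy3, and on arrays 2 and 4 it carried Cy5. The direction is likely and not settled, since no source gives the numerator. It was read so that 21 genes of the cell wall integrity response, known to respond to wall stress, had a median above 0, at 1.30, with 19 of them above 0 on all 4 arrays. With arrays 2 and 4 turned, that median was 0.012. These 21 genes were listed with earlier results of these data known, so the size of the median may depend partly on that choice. Were untreated RNA the numerator, every sign below would swap. WSC1 itself (YOR008C, under its other name SLG1) had no value on any array, which leaves the mutation unchecked on its transcript. In RNA of whole cultures, fewer cells that hold a transcript and less of it in each cell cannot be told apart.

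The mitochondrial ribosomal protein genes were measured more often than the average reading frame. They had a value in 49, 52, 59 and 60 of 65 cells of the table on arrays 1 to 4, or 75.4, 80.0, 90.8 and 92.3%, against 52.4, 58.0, 68.8 and 80.4% of all reading frames. Why some cells of the table are empty is not stated. A value on all 4 arrays was found for 47 of the 65, namely 25 of the large subunit, 14 of the small subunit and 8 named MRP and a digit. These 47 were tested within the fit to all 3080 reading frames that had 4 values. A further 7 had 3 values, 5 had 2 and 1 had 1. The 5 with no value were MRPL4, MRPL50, RSM24, RSM25 and MRP1.

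Most of these genes had slightly lower ratios than the average reading frame, and no single gene passed the test for Congo Red. The mean of the 4 arrays lay below 0 for 42 of the 47 genes (89.4%), against 67.2% of all tested reading frames. The median of the 47 means was -0.28 and that of all tested reading frames -0.10. The means ran from -0.53 for MRPL8 to 0.10 for MRP8, so that even the lowest was a modest change, to 0.694 of the untreated level if the base is 2. Spread among the genes was narrow, with an SD of their means of 0.16 against 0.32 over all tested reading frames.

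The lower level was seen on each array. The median of the 47 genes was -0.21, -0.24, -0.35 and -0.11 on arrays 1 to 4. All tested reading frames had medians of -0.13, -0.12, -0.064 and -0.048 on the same arrays. The genes thus lay below all tested reading frames by -0.087, -0.12, -0.29 and -0.061, least on array 4 and most on array 3. By culture the difference was -0.15 and -0.18 if arrays 1 and 2 share a culture, and -0.078 and -0.20 if arrays 1 and 4 do.

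With limma on the means of the 2 cultures, 0 of the 47 genes were called at an adjusted p below 0.05, against 2.6% of all tested reading frames (1.07% below 0 and 1.53% above 0). Adjusted p-values of the 47 ran from 0.0673 to 0.993. At an unadjusted p below 0.05 there were 24 of the 47 (51.1%), all 24 of them below 0, while 26.2% of all tested reading frames passed that limit, 18.4% below 0 and 7.79% above 0. No source says which arrays belong to the same culture, so the larger p of both possible pairings was kept, and with arrays 1 and 4 as a culture 21 of the 47 (44.7%) were called, all below 0, against 25.6% of all tested reading frames called and 17.3% called below 0. With arrays 1 and 2 as a culture 0 of the 47 were called, against 2.73%. Limma on single arrays with a term for the dye called 11 of the 47 (23.4%), all below 0, against 10.4% of all tested reading frames called and 6.46% called below 0. It takes arrays of the same culture as independent. The 11 were MRPL6, MRPL8, MRPL13, MRPL25, MRPL39, MRPL44, MRPS8, RSM28, MRP2, MRP7 and MRP35. Without array 1, 2, 3 or 4 in turn, that fit called 12, 0, 17 and 0 of the 47, against 12.2, 0.422, 26.7 and 0.812% of all tested reading frames. In that fit, which weighs both dye orientations equally, the estimate for MRPL8 was -0.46 without array 2 and -0.59 without array 4. A lost call was thus not always a smaller difference. With a value on at least 3 arrays enough, the fit with a dye term called 2 of 54, MRP35 and MRPL8, against 5.82%. On the culture means 0 of the 47 were called after centring (background 0.13%), after scaling (1.72%) and with arrays 2 and 4 turned (0.0%).

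A sign below 0 on all 4 arrays was found for 22 of the 47 genes (46.8%), against 21.0% of all tested reading frames, and a sign above 0 on all 4 for 0 of the 47, against 7.44%. After each array was centred on its median, 12 of the 47 (25.5%) lay below 0 on all 4 arrays, against 11.4% of all tested reading frames, and 1, MRPL35, lay above. With arrays 2 and 4 turned, 6 of the 47 (12.8%) lay below 0 on all arrays, against 12.3%, so the shared sign of these genes depends on the reading of the dye swap.

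**Figure D1:**
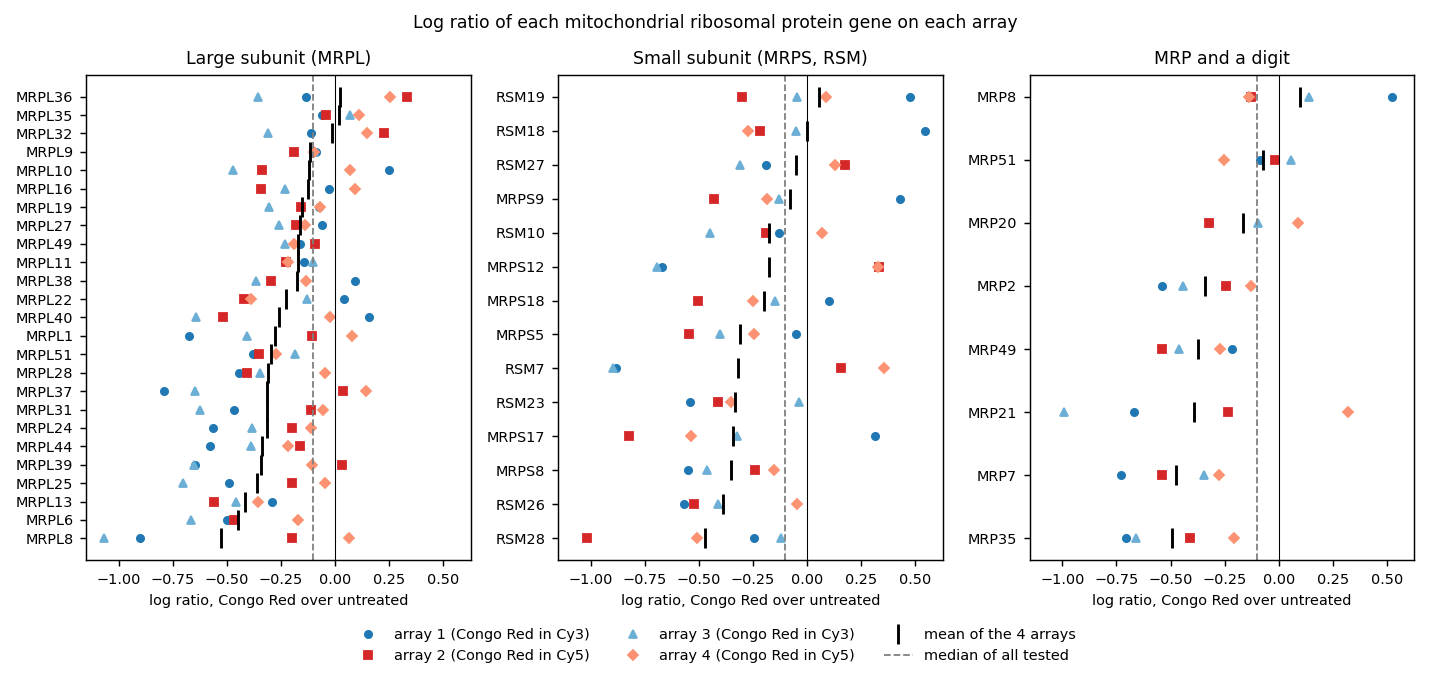
Log ratio of Congo Red over untreated (x axis, log units) for the 47 genes with a value on all 4 arrays, in rows ordered by their mean. Blue marks are arrays with Congo Red in Cy3, red marks arrays with it in Cy5, black bars the means, and the dashed line the median of all tested reading frames at -0.10. Most means lie left of the dashed line, between -0.53 and 0.10, and in rows such as RSM7 and MRPS12 blue and red marks stand on opposite sides of 0.

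Of the large subunit genes with 4 values, the lowest mean was that of MRPL8 (YJL063C), the mitochondrial form of bacterial protein L17 (universal name bL17m). Its log ratios were -0.90, -0.20, -1.07 and 0.064 on arrays 1 to 4, with a mean of -0.53 ± 0.088 (moderated SE, n = 2 cultures, adjusted p = 0.0673). The arrays with Congo Red in Cy3 were far lower than those with it in Cy5, and array 4 lay above 0. The difference between the dye orientations, 0.92 log units, passed the test of the dye effect (adjusted p = 0.0279).

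MRPL6 (YHR147C), the counterpart of uL6, which sits near the place where translation factors bind, had log ratios of -0.50, -0.47, -0.66 and -0.17. All arrays lay below 0, and the mean was -0.45 ± 0.088 (adjusted p = 0.0874). MRPL13 (YKR006C), a mitochondria-specific protein (mL50) found near the exit of the peptide tunnel, had -0.29, -0.56, -0.46 and -0.35, with a mean of -0.42 ± 0.087 (adjusted p = 0.096). Its arrays were close to each other, and none was nearer to 0 than -0.29.

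MRPL25 (YGR076C, mL59) had log ratios of -0.49, -0.20, -0.70 and -0.046 on arrays 1 to 4. MRPL39 (YML009C, bL33m) had -0.65, 0.033, -0.65 and -0.11, and its dye effect passed the test (adjusted p = 0.0453). MRPL44 (YMR225C, mL53) had -0.58, -0.16, -0.39 and -0.22. All 3 were lowest on the arrays with Congo Red in Cy3, and their means of -0.36, -0.34 and -0.34 were not called (adjusted p = 0.119, 0.134 and 0.136).

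At the other end of the large subunit stood MRPL36, MRPL35 and MRPL32. MRPL36 (YBR122C, bL31m, part of the central protuberance) had -0.13, 0.33, -0.35 and 0.25 and a mean of 0.025. MRPL35 (YDR322W, mL38, of the same region) had -0.060, -0.043, 0.070 and 0.11 and a mean of 0.020. MRPL32 (YCR003W, bL32m), a protein that the m-AAA protease of the inner membrane trims before it joins the ribosome, had -0.11, 0.23, -0.31 and 0.15 and a mean of -0.011. None of these 3 was called (adjusted p of 0.874, 0.902 and 0.943). MRPL36 and MRPL32 changed sign with the dye, and the mean of MRPL32 was 0.078 after centring.

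By place in the large subunit, the tested genes of the tunnel exit all had means below 0. So did 93.1% of all tested large subunit genes, MRP genes included, and 67.2% of all tested reading frames. Beside MRPL13 the tunnel exit genes are MRPL40 (uL24m) at -0.26, MRPL22 (uL22m) at -0.22, MRP20 (uL23m) at -0.16 and MRPL27 (mL41) at -0.16. MRPL40 had 0.16, -0.52, -0.64 and -0.024 on arrays 1 to 4. Its SE of 0.16, the larger of both pairings of arrays into cultures, was the highest of the 47 genes. MRPL3 (mL44), of the same place, had -0.11 and -0.21 on arrays 3 and 4 alone.

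Around the peptidyl transferase centre, where peptide bonds form, MRP7 (bL27m) stood at -0.47, while MRPL16 (uL16m) and MRPL9 (uL3m) were at -0.13 and -0.12. MRP7 (YNL005C) had -0.73, -0.54, -0.35 and -0.28 on arrays 1 to 4, all below 0, with an SE of 0.12 and no call (adjusted p = 0.119). In the stalk and factor binding region, MRPL11 (uL10m) and MRPL19 (uL11m) were at -0.17 and -0.15, with every array below 0 for both. MRPL1 (uL1m), of the stalk on the opposite side, where empty tRNA leaves, was at -0.28.

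The central protuberance, which contacts the small subunit, held the 2 large subunit genes with means above 0, MRPL35 and MRPL36. MRPL28 (mL40), of the same region, was at -0.31 and below 0 on all arrays. MRPL17 (mL46) had -0.58 and -0.35 on arrays 3 and 4, and MRPL7 (uL5m) had -0.24, 0.093 and -0.11 on arrays 1, 3 and 4.

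Among the other large subunit genes with 4 values, MRP35 (YNL122C, bL35m) was lowest after MRPL8. It had -0.70, -0.41, -0.66 and -0.21 and a mean of -0.50 ± 0.092 (adjusted p = 0.0828). MRP49 (mL61) was at -0.37, MRPL24 (bL28m), MRPL31 (mL60) and MRPL37 (mL54) each at -0.31, and MRPL51 (mL43) at -0.30. MRPL38 (uL14m), MRPL49 (bL21m) and MRPL10 (uL15m) were nearer to 0, at -0.17, -0.17 and -0.12. With values on 3 arrays, MRPL33 (uL30m) had -0.65, -0.87 and -0.17 and MRPL23 (uL13m) had -0.25, -0.52 and 0.078 on arrays 2 to 4. MRPL20 (mL58) had -0.43 and -0.22 on arrays 3 and 4.

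Of the small subunit genes with 4 values, RSM28 (YDR494W, mS46), a mitochondria-specific protein, had the lowest mean. Its log ratios were -0.24, -1.02, -0.12 and -0.51 on arrays 1 to 4, lower on the arrays with Congo Red in Cy5. The mean was -0.47 ± 0.11 (adjusted p = 0.119). RSM26 (YJR101W, mS42), which resembles superoxide dismutase, had -0.57, -0.52, -0.41 and -0.045, with a mean of -0.39 ± 0.11 (adjusted p = 0.152). RSM23 (YGL129C, mS29), the relative of the human GTP-binding protein DAP3, had -0.54, -0.41, -0.035 and -0.35, with a mean of -0.33 ± 0.11 (adjusted p = 0.17). All 3 lay below 0 on every array, and in RSM26 and RSM23 a single array, 4 and 3 in turn, was close to 0.

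MRPS8 (YMR158W, uS8m), of the body of the subunit, had -0.55, -0.24, -0.46 and -0.15 and a mean of -0.35 ± 0.089 (adjusted p = 0.131). MRPS17 (YMR188C, uS17m), also of the body, had 0.32, -0.82, -0.32 and -0.53 and a mean of -0.34 ± 0.12 (adjusted p = 0.175). MRPS8 thus kept its sign on all arrays, and MRPS17 lay above 0 on array 1 and below 0 on the others. MRPS5 (uS5m), at the entry of the mRNA channel, was at -0.31 and below 0 on all arrays.

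RSM19 (YNR037C, uS19m), a protein of the head, had 0.48, -0.30, -0.045 and 0.091 and the highest mean of the small subunit, 0.056 ± 0.12 (adjusted p = 0.77). RSM18 (YER050C, bS18m), of the platform, had 0.55, -0.22, -0.051 and -0.27, with a mean of 0.0015. RSM27 (YGR215W, mS33) had -0.19, 0.18, -0.31 and 0.13, with a mean of -0.048. In RSM19 and RSM18 the high value of array 1 stands against lower ones on the rest, and RSM27 changed sign with the dye.

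In the head, which holds the tRNA path with the body, RSM7 (uS7m) and MRP2 (uS14m) were at -0.32 and -0.34, RSM10 (uS10m) at -0.17 and MRPS9 (uS9m) at -0.077. On the platform, MRP21 (YBL090W, bS21m) had -0.67, -0.24, -0.99 and 0.32 and a mean of -0.39 (adjusted p = 0.148), and MRPS18 (uS11m) was at -0.20. MRP51 (YPL118W, bS1m), which acts with the leaders of mitochondrial mRNAs, had -0.088, -0.017, 0.059 and -0.25 and a mean of -0.075. MRPS12 (uS12m), of the decoding site, was at -0.18. Where these genes were below 0 by their mean, single arrays often were not, and of this paragraph only MRP2 lay below 0 on all 4.

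With fewer than 4 values, MRP13 (mS44) had -0.83, -0.37 and -0.37 and MRPS35 (mS45) had -0.72, 0.092 and -0.21 on arrays 2 to 4. MRP4 (uS2m) had 0.11, -0.50 and 0.097 on the same arrays, and MRP17 (bS6m) had -0.35, -0.56 and 0.027 on arrays 1, 3 and 4. MRPS16 (bS16m) had -0.78 and -0.15 and MRPS28 (uS15m) had -0.62 and -0.30 on arrays 3 and 4. RSM22, a methyltransferase-like protein needed for assembly, had -0.42 on array 4 alone.

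MRP8 (YKL142W) was first named as a mitochondrial ribosomal protein from its sequence, but has no universal ribosomal name in the gene table. It had 0.53, -0.13, 0.14 and -0.14 on arrays 1 to 4, following the dye, and the highest mean of the 47 genes at 0.10 ± 0.099 (adjusted p = 0.524). Without it the median of the other genes was -0.29.

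The medians of the large and the small subunit lay close together. The 25 MRPL genes had a median of -0.26 and the 14 MRPS and RSM genes one of -0.25, a difference of -0.0027, while the same difference in the culture means ran from -0.053 to 0.037. On arrays 1 to 4 it was -0.0034, 0.16, -0.049 and 0.099, so its sign was not shared by the arrays. With the MRP genes assigned to the subunit they belong to, 29 large against 17 small subunit genes, the difference was 0.034. No p is given, since members of a complex are not replicates and 2 cultures allow no exact test that could pass 0.05. The subunits differed more in spread between dye orientations. The difference of arrays 2 and 4 from arrays 1 and 3 had an SD of 0.32 over the large and 0.57 over the small subunit genes, against 0.56 over all tested reading frames. That difference divided by 2, the dye's share in each array, was larger than the mean, by size, in 3 of 25 large and 6 of 14 small subunit genes, against 48.5% of all tested reading frames.

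**Figure D2:**
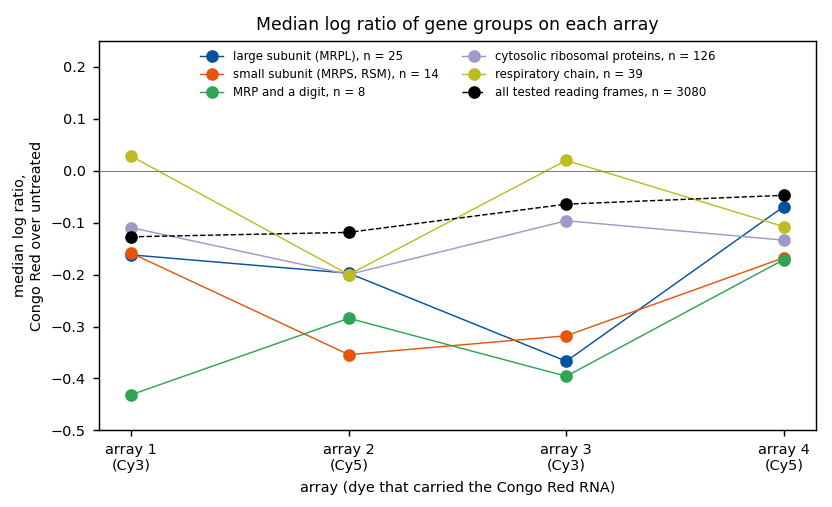
Median log ratio (y axis, log units) of each gene group on each of the 4 arrays (x axis, with the dye that carried the Congo Red RNA); lines only join the points of a group. Large and small subunit medians lie between -0.069 and -0.37, below that of all tested reading frames on every array, and neither subunit is the lower on all arrays.

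A property that the rule did not use is whether a protein has a bacterial counterpart, which its universal name gives (u or b with one, m without). The 32 bacterial-type genes had a median of -0.19 and the 14 mitochondria-specific genes one of -0.32. Below 0 on all 4 arrays were 11 of the 32 (34.4%) and 11 of the 14 (78.6%), with 21.0% of all tested reading frames as background. The exceptions among the mitochondria-specific genes were MRPL37, RSM27 and MRPL35. The difference of 0.14 between the medians came mainly from array 1, where it was 0.28, and was 0.036, 0.0059 and -0.010 on arrays 2 to 4. Without array 1 it was 0.024, and with arrays 2 and 4 turned 0.0078. After centring, 7 of the 32 (21.9%) and 5 of the 14 (35.7%) lay below 0 on all arrays, against 11.4%. No test was made of this difference.

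**Figure D3:**
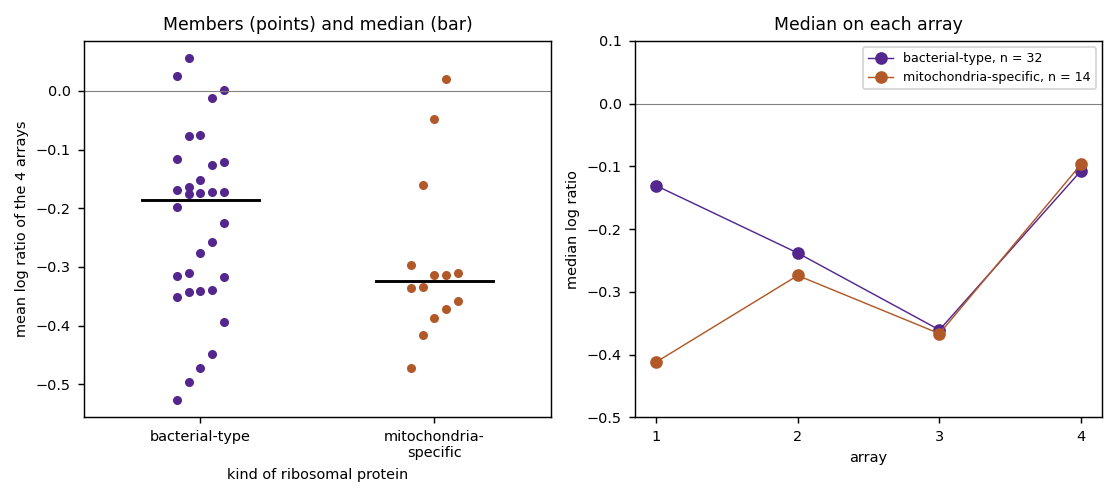
Left, mean log ratio of the 4 arrays (y axis, log units) for each bacterial-type and mitochondria-specific gene, with the group's median as a bar. Right, the median of both kinds on each array, which lie at -0.13 and -0.41 on array 1 and within 0.036 of each other on arrays 2 to 4.

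Several of these genes had ratios that differed between the dye orientations, while others, such as MRPL27 and MRPL16, had differences of 0.00091 and 0.0048. Across the 47 genes, log ratios of arrays with the same orientation correlated at Pearson r = 0.65 (arrays 1 and 3) and 0.717 (arrays 2 and 4), and those of opposite orientation at -0.423 to -0.151. Over all 3080 tested reading frames the same correlations were 0.641 and 0.707, and -0.0532 to 0.327. Genes are not independent and arrays of an orientation share their labelling, so these values are a description. They show that which of the 47 genes is lower or higher was shared within an orientation and not between orientations.

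Limma on single arrays called a dye effect for 5 of the 47 genes, against 16.0% of all tested reading frames. In all 5, MRPL8, MRPL37, MRPL39, RSM7 and MRPS12, the arrays with Congo Red in Cy3 were the lower ones. RSM7 (YJR113C), which lies at the exit side of the mRNA channel, had -0.88, 0.16, -0.90 and 0.36 on arrays 1 to 4, a difference of 1.15 (adjusted p = 0.0218). MRPS12 (YNR036C) had -0.67, 0.33, -0.69 and 0.33, a difference of 1.01 (adjusted p = 0.0223), and MRPL37 (YBR268W) had -0.79, 0.040, -0.65 and 0.15, a difference of 0.81 (adjusted p = 0.0278). Their means of -0.32, -0.18 and -0.31 are averages of arrays that disagree in sign. In 7 of the 47 genes (14.9%) the sign followed the dye, against 28.7% of all tested reading frames. The median of the 47 genes was -0.24 without the 5 genes.

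MRPS12 and RSM19 are the only neighbours in the genome among these genes in the R64 gene table. Their log ratios were not alike: MRPS12 was below 0 on arrays 1 and 3, while RSM19 was above 0 on array 1 and near 0 on array 3.

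**Figure D4:**
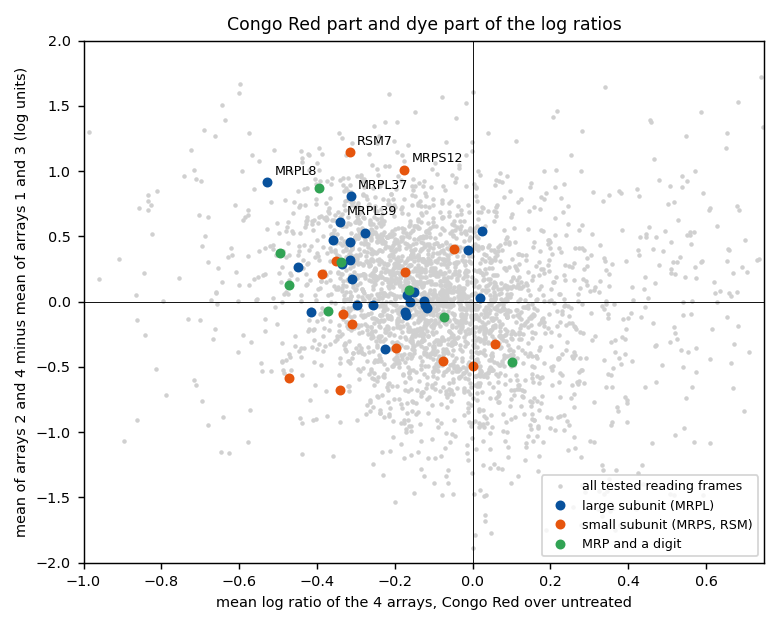
Mean log ratio of the 4 arrays (x axis, log units) against the mean of arrays 2 and 4 minus that of arrays 1 and 3 (y axis, log units) for the 47 genes, over all tested reading frames in grey, of which 79 lie outside the axes. The 5 named genes have a called dye effect, and all lie above 0 on the y axis. Most of the 47 genes lie left of 0 on the x axis.

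Some proteins of the mitochondrial ribosome have other names. Of 13 such rows, 10 were tested, and their median was -0.24, with 9 below 0 and 0 called. Among all tested reading frames, 67.2% had a mean below 0 and 2.6% were called. FYV4, IMG2 and RML2, 3 of the 10 (30.0%), lay below 0 on all arrays, against 21.0% of all tested reading frames. The sign followed the dye in 5 of the 10 (50.0%), against 28.7% of all tested reading frames. A dye effect was called for 3 of the 10, against 16.0%. The lowest was PET123 (mS26), with -0.43, -0.74, 0.018 and -0.71 on arrays 1 to 4 and a mean of -0.47 (adjusted p = 0.105). IMG2 (mL49) had -0.25, -0.29, -0.54 and -0.25 and a mean of -0.33. QRI5 (mS38) was at 0.099. EHD3 (mS47), also an enzyme of valine breakdown, had -1.06, 1.33, -0.55 and 0.28, with a called dye effect (limma on single arrays, adjusted p = 0.0457) and a mean near 0. The dye effects of MNP1 and IMG1 were called too (adjusted p = 0.0385 and 0.0281).

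The other genes of mitochondrial translation were poorly covered. Of 37 rows for translation factors, translational activators and assembly factors, 13 were tested, with a median of -0.25, and OXA1, which inserts proteins made in mitochondria into the inner membrane, was called (adjusted p = 0.05 after rounding, just under the threshold). OXA1 had -1.43, 0.035, -1.36 and 0.18 on arrays 1 to 4, a mean of -0.64, and a called dye effect (adjusted p = 0.0164), so that its mean joins arrays on both sides of 0. After OXA1 the lowest was MSS51, an activator of COX1 translation, at -0.38. MTG2, a GTPase of large subunit assembly, was at -0.35 and below 0 on all arrays. Of 14 mitochondrial tRNA synthetase rows 4 were tested, with a median of -0.26, AIM10 lowest at -0.53 and MSK1 next at -0.26, and 0 were called. Of 11 rows for RNA polymerase, RNA processing and DNA maintenance 3 were tested, and 0 were called. They were the RNA polymerase RPO41 at 0.12, the packaging protein ABF2 at 0.14 and MGM101 at 0.017. For comparison with the calls in these lists, 2.6% of all tested reading frames were called, and 16.0% had a called dye effect.

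Nuclear genes of the cytosolic ribosome and the respiratory chain had medians nearer to 0. The 126 tested cytosolic ribosomal proteins had a median of -0.14, nearer to that of all tested reading frames, and the same share below 0 on all arrays, 59 of 126 (46.8%). Their means had an SD of 0.087, and 0 were called. The lowest were RPS19B at -0.31 and RPL30 at -0.30. After centring, the share below 0 on all arrays was 13.5% for the cytosolic and 25.5% for the mitochondrial ribosomal proteins. It was 11.4% for all tested reading frames. The 39 tested nuclear genes listed for the respiratory chain and the ATP synthase had a median of -0.055. Most were listed by name alone, as ATP, COX, QCR or SDH and a digit, so not all need be subunits. By their mean 24 of 39 (61.5%) lay below 0, 2 were called, both lower (CYC7 and COX5B), and 7 (17.9%) lay below 0 on all arrays. Of all tested reading frames, 67.2% had a mean below 0, and 21.0% lay below 0 on all arrays. Called were 2.6% of them, 1.07% below 0. These groups were set side by side as descriptions, and no test of the difference between them was made.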

How the data were processed

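Per the labels, total RNA of a wsc1 mutant with and without Congo Red was labelled with Cy5 and Cy3 and hybridised on 4 two-channel arrays. In the deposited table each reading frame has a ratio on a log scale for each array, taken as log2. Its log base, numerator, background correction, centring and normalization are not stated. Growth time before Congo Red differs between the labels and the design text. Of 6209 rows, 2 controls were left out, and 5654 of 6207 reading frames found a symbol.

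Values were used as deposited. The 3080 reading frames with 4 values were fitted with limma 3.58.1 (lmFit, eBayes) in R 4.3.3 on means of opposite-dye arrays (n = 2 cultures) under both possible pairings, keeping the larger p and SE; p-values are two-sided and Benjamini-Hochberg adjusted over all of them, with a threshold of 0.05. The SE draws on variance pooled over genes, and the lowest among these genes was 0.087. The dye effect was tested with limma on single arrays. The fits were also run on simulated data with noise independent between arrays. No effect shared by arrays of a culture was simulated, so that run cannot show how such sharing acts on either fit. The number of arrays limits the precision, and a table of ratios shows no signal over background. The labels do not say whether both cultures were grown independently.

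Genes with values on each array are the 6 lowest and 3 highest means of MRPL, 5 and 3 of MRPS and RSM, 3 and 2 of MRP and a digit, and those with a called effect; a few others are given the same way, chosen after their values were seen. Members, lists and the rule were chosen with earlier results of these data known. Universal names come from the gene table.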

Additional observations from a re-analysis of the deposited data

Results flagged for a closer look

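Dixon's test was applied to 62 sets of 4 array values given in the report, and in 3 of them 1 array lay far from the others. Chance flags about 1 in 20 such sets, and the sets share genes and arrays. MRPL9 had -0.19 on array 2 and between -0.098 and -0.086 on the others. IMG2 had -0.54 on array 3 and between -0.29 and -0.25 on the others. The bacterial-type minus mitochondria-specific difference of medians was 0.28 on array 1 and between -0.010 and 0.036 on the others.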

How the results depend on the processing

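The count of called genes was 0 with arrays 1 and 2 as a culture, after centring, after scaling and with arrays 2 and 4 turned. It was 21 with arrays 1 and 4 as a culture, 11 on single arrays with a dye term, 2 of 54 in the same fit when a value on at least 3 arrays sufficed, and 0 to 17 in that fit when 1 array was left out (12 without array 1, 17 without array 3). The share called among all tested reading frames also moved, from 2.73% with arrays 1 and 2 as a culture to 25.6% with arrays 1 and 4. That share was 0.13% after centring, 1.72% after scaling and 0.0% with arrays 2 and 4 turned. In the fit with a dye term it was 10.4%, or 5.82% with at least 3 values. Genes below 0 on all arrays went from 22 to 12 after centring and 6 with arrays 2 and 4 turned. All tested reading frames below 0 on all arrays were 21.0, 11.4 and 12.3% in the same settings. The median of the 47 genes, -0.28, was -0.19 after centring, -0.25 after scaling, -0.038 with arrays 2 and 4 turned, and -0.32 to -0.22 without 1 array. The large minus small difference of -0.0027 was -0.10 with arrays 2 and 4 turned, -0.068 with a value on at least 3 arrays, and -0.013 to -0.0024 without 1 array. The difference by kind of protein, 0.14, was 0.067 between means over the genes in place of medians, 0.0078 with arrays 2 and 4 turned and 0.024 to 0.17 without 1 array. The 5 dye calls remained 5 in number after centring and scaling. The median of the cell wall integrity genes, 1.30, was 0.012 with arrays 2 and 4 turned, an alternative added after seeing the data, as were the medians without MRP8 (-0.29) and without the dye-called genes (-0.24, and 0.055 for the large minus small difference). The cause of these changes was not tested.

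Among 25 genes given by array, signs reversed after centring for MRPL32 (0.078), RSM27 (0.042) and MRP51 (0.015), and after scaling for MRPL32 (0.016) and RSM18 (-0.052). With arrays 2 and 4 turned they reversed for MRPL13 (0.041), MRPL35 (-0.015), MRPL36 (-0.27), RSM28 (0.29), MRPS17 (0.34), RSM23 (0.046) and MRP51 (0.060). Values without 1 array are Congo Red estimates of the fit with a dye term. Among them the sign turned for MRPL32 (-0.062 to 0.039), MRPL35 (-0.019 to 0.059), MRPL36 (-0.030 to 0.080), RSM18 (-0.15 to 0.15) and RSM19 (-0.075 to 0.19). No fit with a replicate block was made, since each ratio already sets both parts of a split culture against each other and the array numbers pair no groups. The pairing of arrays into cultures is covered by both pairings above.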
